A study of Mus musculus with 18 samples.

Results

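The 7 genes described here, Isl1, Six3, Ebf1, Zfp503, Meis1, Meis2 and Pbx3, encode transcription factors of the lateral ganglionic eminence (LGE) and of the striatal neurons that arise from it. They were chosen by name, as listed regulators of the striatal lineage, and they are 7 of the 38355 genes counted in every library. RNA was sequenced from the dissected cortex of mouse embryos of strain C57BL/6 at stage E12.5, and the 18 libraries fall into 4 genotypes. There were 5 libraries of embryos lacking both Dmrt3 and Dmrt5 (Dmrt3-/-;Dmrt5-/-, called double KO), 4 of embryos lacking Dmrt5 (Dmrt5-/-, Dmrt5 KO), 5 of embryos lacking Dmrt3 (Dmrt3-/-, Dmrt3 KO) and 4 of wild-type embryos (WT). Dmrt3 and Dmrt5 are doublesex-related transcription factors of the dorsal telencephalon, and Dmrt5 carries the current symbol Dmrta2. How the null alleles were made, and whether the libraries of a genotype came from separate embryos, is not given in the sources at hand, and every p-value below therefore measures the spread between these libraries.

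The LGE is a swelling of the ventral telencephalon, the subpallium, next to the cortex, which is dorsal and called the pallium. Its progenitors express Gsx2 and Dlx genes and give rise to the GABAergic projection neurons of the striatum and to interneurons of the olfactory bulb. Isl1 is a LIM-homeodomain factor of striatonigral neurons, Six3 a sine oculis-type homeodomain factor needed for striatopallidal neurons, Ebf1 a helix-loop-helix factor of striatonigral differentiation, and Zfp503 (also called Nolz1) a zinc finger factor of striatal progenitors and neurons. Meis1, Meis2 and Pbx3 belong to the TALE class of homeodomain factors, whose MEIS and PBX members bind DNA together as cofactors. None of the 7 is restricted to the LGE: Meis2 is also found in cortical cells, Six3 marks the early anterior forebrain and eye, and Isl1 and Ebf1 also mark neurons outside the telencephalon.

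The members sit on 5 chromosomes of GRCm38, the assembly also called mm10, and all are protein-coding in GENCODE M21. Isl1 (ENSMUSG00000042258) lies on the minus strand at chr13:116298281-116309689, Six3 (ENSMUSG00000038805) on the plus strand at chr17:85613608-85629302, and Ebf1 (ENSMUSG00000057098) on the plus strand at chr11:44617317-45008091. Zfp503 (ENSMUSG00000039081) lies on the minus strand at chr14:21983959-21989601 and Meis1 (ENSMUSG00000020160) on the minus strand at chr11:18879817-19018985. Meis2 (ENSMUSG00000027210) at chr2:115863064-116065839 and Pbx3 (ENSMUSG00000038718) at chr2:34171457-34373142 are both on the minus strand. Promoter windows of 300 bases around an annotated transcription start were available from RefSeq (GRCm38.p6) for 6 members, with a pair of windows for Ebf1. The windows of the 3 genes called in the most comparisons below, Isl1, Six3 and Meis1, are printed 5′ to 3′ on the strand of the gene, with motif matches in capitals. Isl1 is at chr13:116309639-116309938, Six3 at chr17:85620584-85620883 and Meis1 at chr11:19018920-19019219, and each window holds the start of the transcript and the sequence just before it. The RefSeq start used for Six3 lies inside the GENCODE span of the gene.
Isl1: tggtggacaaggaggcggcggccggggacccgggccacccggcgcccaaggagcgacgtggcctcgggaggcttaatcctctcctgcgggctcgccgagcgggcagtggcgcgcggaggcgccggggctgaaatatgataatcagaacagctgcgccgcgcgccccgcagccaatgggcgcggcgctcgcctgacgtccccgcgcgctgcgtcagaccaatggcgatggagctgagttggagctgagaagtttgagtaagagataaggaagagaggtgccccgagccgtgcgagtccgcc
Six3: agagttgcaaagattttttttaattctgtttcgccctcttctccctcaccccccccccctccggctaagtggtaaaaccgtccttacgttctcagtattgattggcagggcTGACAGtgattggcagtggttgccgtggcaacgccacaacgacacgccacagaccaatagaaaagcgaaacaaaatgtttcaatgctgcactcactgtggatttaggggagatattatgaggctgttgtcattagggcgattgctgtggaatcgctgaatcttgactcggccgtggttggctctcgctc
Meis1: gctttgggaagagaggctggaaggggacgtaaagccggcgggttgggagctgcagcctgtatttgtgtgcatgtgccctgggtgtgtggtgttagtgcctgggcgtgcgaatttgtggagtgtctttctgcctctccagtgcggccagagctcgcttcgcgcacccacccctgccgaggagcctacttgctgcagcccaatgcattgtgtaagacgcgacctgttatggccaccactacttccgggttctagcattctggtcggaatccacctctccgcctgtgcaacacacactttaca
The core of the site bound by DMRT proteins, searched as ACANTGT on both strands, was in 0 of the 7 member windows and in 7.54% of 32851 RefSeq windows of the same length. The homeodomain core TAATTA was in 0 of the 7 and in 5.29% of all windows. The MEIS core TGACAG was in 1 of the 7, that of Six3 (the capitals), and in 19.2% of all windows, and no match of one motif overlapped a match of another in the windows printed. These matches describe the letters of the windows only.

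Across the 18 libraries between 19602718 and 33072896 counts were assigned to genes, and levels are given as CPM, read counts scaled to a common library size. Each member had at least 545 counts in every library (Ebf1 in WT replicate 2) and up to 17600 (Meis2 in double KO replicate 5). The targeted transcripts followed the labels: Dmrt3 stood at 0 to 0.383 CPM in the double KO, 30.3 to 48.5 in Dmrt5 KO, 0.232 to 0.398 in Dmrt3 KO and 52.0 to 61.8 in WT. Dmrta2 stood at 1.66 to 4.9 CPM in the double KO, 4.31 to 25.1 in Dmrt5 KO, 155 to 295 in Dmrt3 KO and 159 to 220 in WT, and the 25.1 CPM came from Dmrt5 KO replicate 1. In WT 14 pallial markers summed to between 1270 and 1923 CPM, and 35 striatal and LGE lineage genes to between 1849 and 2193 CPM. The lists differ in length and were not tested for restriction to 1 tissue, so these sums do not compare tissue shares. Of the 35, the 4 genes Dlx1, Dlx2, Dlx5 and Dlx6 summed to between 407 and 645 CPM in WT. Nkx2-1, a marker of the medial ganglionic eminence, stood at 36.7 to 78.8 CPM in WT, so pallial and subpallial transcripts were both present in the dissected cortex. They also carried connective tissue in unequal amounts, since 10 mesenchyme markers summed to between 67.9 and 2171 CPM in the double KO, 443 and 1733 in Dmrt5 KO, 588 and 2803 in Dmrt3 KO and 789 and 2487 in WT. Within the double KO, replicate 5 had the lowest of these sums and replicate 4 the highest. Replicate 5 was also the highest double KO library for 7 of the 7 members, and replicate 4 the lowest for 6 of 7. WT replicate 2 held both Xist (462 CPM) and Y-linked transcripts (13.6 CPM summed), and Dmrt5 KO replicate 1 likewise held 26.7 CPM of Xist beside 111 CPM of Y-linked transcripts, whereas the other 16 libraries had at most 1.42 CPM of one of these measures. Each of this pair was the lowest library of its genotype for 6 of the 7 members. Each also had the fewest counts of its genotype, 19602718 in WT replicate 2 and 21201373 in Dmrt5 KO replicate 1.

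Taken by length, Meis2 was the most abundant of the 7 transcripts in every genotype. In WT it averaged 31.1 ± 6.79 CPM per kb of exon (SD, n = 4), followed by Pbx3 at 18.2 ± 3.12, then Zfp503, Six3 at 10.4 ± 1.31, Isl1 at 9.44 ± 1.22, Meis1 at 4.23 ± 0.423 and Ebf1 at 3.97 ± 1.09 CPM per kb. Zfp503 with Six3, Six3 with Isl1, and Meis1 with Ebf1, differed by less than the sum of their SDs in WT. In the double KO the order was different, with Meis2 at 41.7 ± 9.39 (SD, n = 5), Pbx3 at 30.1 ± 6.79, Six3 at 29.1 ± 4.03 and Isl1 at 28.0 ± 7.82 CPM per kb ahead of Zfp503 at 17.1 ± 3.89, Meis1 at 7.55 ± 1.42 and Ebf1 at 6.27 ± 2.61. Six3 and Isl1 thus stood within the SD of Pbx3 in the double KO. Transcripts of all 7 were present in the WT dissections at this age, which also held subpallial transcripts.

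When both Dmrt genes were missing, Isl1, Six3, Meis1 and Pbx3 rose and no member fell. Isl1 was 2.96-fold and Six3 2.8-fold higher in the double KO than in WT, Meis1 1.79-fold and Pbx3 1.65-fold. Ebf1, Zfp503 and Meis2 had values above WT that did not pass the test. With 4 of 7 members called as higher, the background was 2.42% of the 16236 genes tested, by edgeR's quasi-likelihood test at a Benjamini-Hochberg adjusted p under 0.05. The median log2 fold change was 0.72 over the 7 members and 0.0064 over all genes tested. The double KO libraries lay wholly above the WT libraries for the same 4 members, which 2.57% of all genes did. In bulk tissue a larger share of cells that express a gene and more RNA of that gene per cell cannot be told apart.

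**Figure D1:**
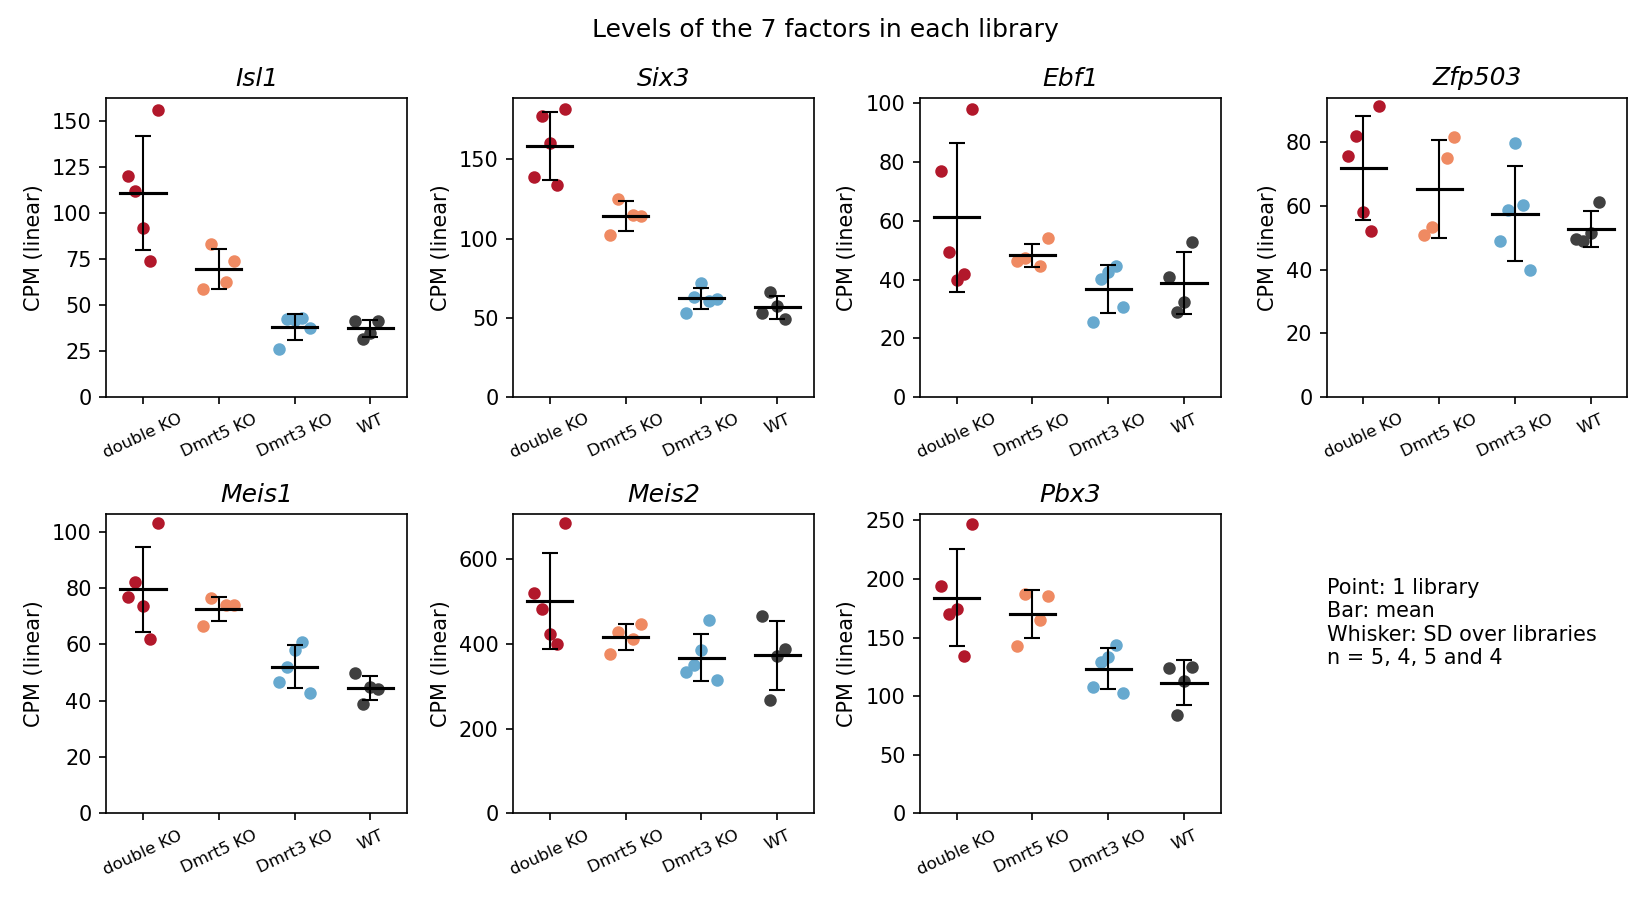
Normalised level of each factor in CPM (linear y axis) in every library, with genotypes from double KO on the left to WT on the right; points are libraries, bars means and whiskers SDs (n = 5, 4, 5 and 4). For Isl1 and Six3 the double KO points (73.7 to 156 CPM and 134 to 182 CPM) lie above all WT points (31.8 to 41.5 CPM and 49.5 to 66.0 CPM), and for Meis2 the genotypes overlap.

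Isl1 had 120, 112, 91.9, 73.7 and 156 CPM in double KO replicates 1 to 5 and 58.7, 82.9, 62.5 and 74.1 CPM in Dmrt5 KO replicates 1, 2, 4 and 5. It had 26.3, 42.5, 41.8, 43.0 and 37.4 CPM in Dmrt3 KO replicates 1 to 5, and 41.5, 31.8, 34.9 and 41.2 CPM in WT replicates 1 to 4. Every double KO and every Dmrt5 KO library therefore exceeded every Dmrt3 KO and WT library, and all 4 Dmrt5 KO libraries lay below 4 of the 5 double KO libraries. Those at 82.9 and 74.1 CPM lay above the lowest double KO library, replicate 4 at 73.7 CPM. The log2 fold change was 1.57 ± 0.20 (SE) in the double KO against WT (adjusted p = 0.000101, edgeR) and 0.90 ± 0.20 in Dmrt5 KO against WT (adjusted p = 0.0425). The Dmrt5 KO call was narrow: the adjusted p ran from 0.0161 to 0.169 when single libraries were left out. It was also lost with no filter on low counts (adjusted p = 0.0555). With single libraries left out it stayed under 0.05 only without Dmrt3 KO replicate 1, 2 or 3 or double KO replicate 4 or 5, and was lost without any 1 of the 4 WT libraries, the 4 Dmrt5 KO libraries, Dmrt3 KO replicates 4 and 5, or double KO replicates 1 to 3.

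Six3 had 139, 177, 160, 134 and 182 CPM in double KO replicates 1 to 5, and 102, 125, 115 and 114 CPM in Dmrt5 KO replicates 1, 2, 4 and 5. The Dmrt3 KO libraries had 53.0, 63.1, 72.2, 60.9 and 61.9 CPM, and the WT libraries 53.1, 66.0, 57.5 and 49.5 CPM. The double KO libraries lay above the Dmrt5 KO libraries without overlap, and these above both remaining genotypes, which overlapped each other. Six3 rose by a log2 value of 1.49 ± 0.12 in the double KO against WT (adjusted p = 8.59e-07, edgeR) and of 1.01 ± 0.13 in Dmrt5 KO against WT (adjusted p = 0.000862). It was the member with the smallest SE in both comparisons, and it was called in both whichever single library was left out.

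Six3 overlaps Six3os1 (ENSMUSG00000093460, chr17:85600651-85618398), a noncoding transcript on the other strand, over 106 exon bases, and the library kit did not mark strand, so reads from the shared bases cannot be assigned to one gene. Six3os1 had 129, 153, 151, 186 and 228 CPM in the double KO libraries, 98.2, 126, 123 and 108 in Dmrt5 KO, 64.0, 58.2, 83.2, 67.7 and 82.2 in Dmrt3 KO, and 70.2, 72.4, 54.7 and 78.1 in WT. It rose in the double KO (log2 1.30 ± 0.17, adjusted p = 0.000101, edgeR) and in Dmrt5 KO (log2 0.73 ± 0.17, adjusted p = 0.0488). In double KO replicate 4 Six3os1 was above replicates 1 to 3 while Six3 was at its lowest. The other annotated genes that overlap a member and are in the files, all opposite in strand, are Gm12158 within Ebf1, Gm16140 and Gm16141 within Meis1 and C79798 within Pbx3. Gm16140 shares 896 exon bases with Meis1, whose reads likewise cannot be assigned by strand, and it had 0 CPM in every genotype.

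Ebf1 and Zfp503, the remaining factors of striatal differentiation, were not called against WT in any knockout. Ebf1 had 76.9, 49.4, 39.8, 41.8 and 98.2 CPM in the double KO, 46.5, 47.5, 44.8 and 54.1 in Dmrt5 KO, 25.4, 40.2, 42.7, 44.6 and 30.8 in Dmrt3 KO, and 40.8, 29.1, 32.3 and 52.9 in WT. In the double KO, replicates 1 and 5 were high and the other 3 lay inside the WT range. Its log2 fold change in the double KO against WT was 0.66 ± 0.26 (adjusted p = 0.169, edgeR). Zfp503 had 75.9, 81.9, 58.1, 52.2 and 91.4 CPM in the double KO, 51.0, 53.5, 75.1 and 81.7 in Dmrt5 KO, 48.9, 58.9, 79.9, 60.3 and 39.9 in Dmrt3 KO, and 49.6, 49.0, 51.5 and 61.2 in WT. All 4 genotypes overlapped for Zfp503, and its log2 fold change in the double KO was 0.44 ± 0.20 (adjusted p = 0.265).

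Among the TALE factors, Meis1 and Pbx3 rose in the double KO and Meis2 was not called. Meis1 had 76.8, 82.3, 73.6, 62.0 and 103 CPM in the double KO, 66.4, 76.4, 73.9 and 73.9 in Dmrt5 KO, 46.7, 51.9, 57.9, 61.0 and 42.8 in Dmrt3 KO, and 49.8, 39.0, 44.9 and 44.3 in WT. Double KO and Dmrt5 KO libraries overlapped each other and lay above all libraries of Dmrt3 KO and WT. The log2 fold change of Meis1 was 0.84 ± 0.14 in the double KO against WT (adjusted p = 0.00111, edgeR) and 0.71 ± 0.14 in Dmrt5 KO against WT (adjusted p = 0.0208). The Dmrt5 KO call for Meis1 was lost, at an adjusted p up to 0.0835, without WT replicate 3 or 4 or without Dmrt5 KO replicate 2, 4 or 5.

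Pbx3 had 194, 170, 174, 134 and 247 CPM in the double KO, 143, 187, 165 and 185 in Dmrt5 KO, 108, 129, 133, 144 and 103 in Dmrt3 KO, and 124, 84.1, 113 and 125 in WT. Every double KO and Dmrt5 KO library exceeded every WT library, while the Dmrt3 KO range reached into all 3 other genotypes. Pbx3 rose by a log2 value of 0.72 ± 0.17 in the double KO against WT (adjusted p = 0.012, edgeR), and in Dmrt5 KO against WT its log2 fold change was 0.61 ± 0.17 (adjusted p = 0.125). It passed the test there by DESeq2 (adjusted p = 0.0293), with the length slope as a term (0.00665) and without double KO replicates 4 and 5 (0.0304), and under none of the other alternatives run. The double KO call was lost when only the double KO and WT libraries were fitted (log2 0.73, adjusted p = 0.0949) and when the summary score of the mesenchyme markers was a term of the fit (log2 0.42, adjusted p = 0.267).

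Meis2 had 520, 482, 424, 400 and 686 CPM in the double KO, 377, 428, 413 and 448 in Dmrt5 KO, 334, 350, 385, 458 and 314 in Dmrt3 KO, and 467, 269, 372 and 388 in WT. The highest WT library, replicate 1, exceeded the 2 lowest double KO libraries, and the 4 genotypes overlapped. The log2 fold change of Meis2 in the double KO against WT was 0.43 ± 0.17 (adjusted p = 0.181, edgeR).

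**Figure D2:**
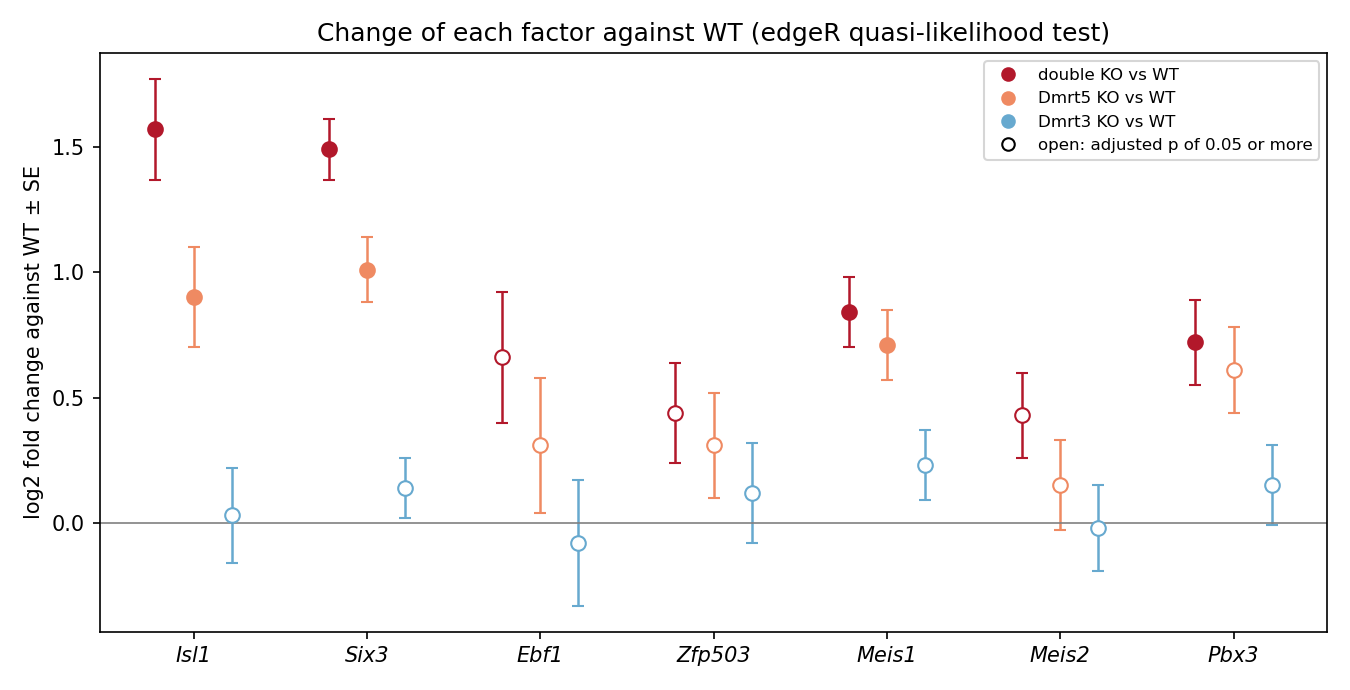
Log2 fold change against WT (y axis) of each factor in the double KO, Dmrt5 KO and Dmrt3 KO, with SE as whiskers, from edgeR's quasi-likelihood test; filled points passed an adjusted p of 0.05. Isl1 and Six3 have the largest values (1.57 and 1.49 in the double KO), and the Dmrt3 KO values lie between -0.08 and 0.23.

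In Dmrt5 KO against WT, 3 of the 7 members rose, Six3, Isl1 and Meis1, against a background of 0.339% of all genes called as higher in Dmrt5 KO. The Dmrt5 KO libraries lay wholly above the WT libraries for 4 of the 7, these 3 and Pbx3, as they did for 4.39% of all genes. The median log2 fold change was 0.61 over the members and -0.0214 over all genes. The members that were not called beside Pbx3 had log2 values of 0.31 ± 0.27 (Ebf1), 0.31 ± 0.21 (Zfp503) and 0.15 ± 0.18 (Meis2). Without WT replicate 2 and Dmrt5 KO replicate 1, the libraries with reads of both sexes, Six3 alone was called (log2 1.16 ± 0.14, adjusted p = 0.000654, edgeR), and Isl1 and Meis1 had log2 values of 0.92 and 0.71 (adjusted p = 0.0988 and 0.0629).

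In Dmrt3 KO against WT no member was called. Of the 7, 0 were called by edgeR and 0 by DESeq2, and edgeR called 0.0123% of all genes in either direction. At an unadjusted p under 0.05 by edgeR there were 0 of the 7 members and 1163 of the 16236 genes tested. The log2 fold changes ran from -0.08 ± 0.25 for Ebf1 to 0.23 ± 0.14 for Meis1, with adjusted p-values from 0.65 to 0.954, and all 7 members overlapped between these genotypes.

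The double KO was then set against each single KO. Against Dmrt3 KO, Isl1 (log2 1.53 ± 0.18, adjusted p = 5.71e-05, edgeR), Six3 (1.35 ± 0.12, adjusted p = 1.39e-06), Meis1 (0.61 ± 0.13, adjusted p = 0.00991) and Pbx3 (0.57 ± 0.15, adjusted p = 0.0468) rose, 4 of 7 where 1.74% of all genes were called as higher. The libraries of Isl1, Six3 and Meis1 did not overlap here, which 2.29% of all genes matched. Pbx3 lost this call with only these genotypes fitted (adjusted p = 0.101) and with the replicate block (0.0859), sex (0.0695), the mesenchyme score (0.749) or the length slope (0.0549) as a term. It held the call in 4 of 18 fits that each left out 1 library (WT replicate 2 or 4, Dmrt5 KO replicate 1, double KO replicate 4) and lost it without any other library, at an adjusted p up to 0.135. Meis1 lost its call when only these 2 genotypes were fitted (adjusted p = 0.0586) and with the mesenchyme score as a term (log2 0.37, adjusted p = 0.225). Against Dmrt5 KO, 0 members were called by edgeR and 1, Six3, by DESeq2 (adjusted p = 0.0213), and 2 had an unadjusted p under 0.05. Those 2 were Isl1 (log2 0.67 ± 0.19, adjusted p = 0.28) and Six3 (log2 0.48 ± 0.12, adjusted p = 0.158), and 0.0123% of all genes were called as higher. Of the 16236 genes tested, 764 had an unadjusted p under 0.05 by edgeR, in either direction. Six3 was the 1 member whose libraries did not overlap in this comparison, which 0.407% of all genes matched. The other 5 members had log2 values between 0.11 and 0.34 with an adjusted p of 0.997.

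Between the single knockouts, Six3 rose in Dmrt5 KO against Dmrt3 KO (log2 0.87 ± 0.12, adjusted p = 0.00227, edgeR), 1 of 7 members where 0.0616% of all genes were called as higher. The Dmrt5 KO libraries lay wholly above the Dmrt3 KO libraries for Isl1, Six3, Ebf1 and Meis1, 4 of 7, as for 2.03% of all genes. Isl1 had a log2 value of 0.86 ± 0.19 (adjusted p = 0.0839), and passed the test without double KO replicate 4 or 5 (adjusted p down to 0.0285). Meis1 had 0.48 ± 0.14 and Pbx3 0.46 ± 0.16, neither called.

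The interaction, taken on the log2 scale as the change in the double KO less the changes in Dmrt5 KO and in Dmrt3 KO, each against WT, asks whether the joint loss departs from the sum of the single losses. By edgeR 0 of 7 members were called and by DESeq2 0, and edgeR called 0.142% of all genes in either direction. At an unadjusted p under 0.05 by edgeR there were 1497 of the 16236 genes tested and 1 of the 7 members. That member was Isl1, with an interaction of 0.64 ± 0.27 (unadjusted p = 0.0304, adjusted p = 0.529), and Six3 had 0.34 ± 0.17 (adjusted p = 0.54). The SE of these terms, between 0.17 and 0.36, was for each member above those of its pairwise comparisons. The comparisons with WT share the same 4 WT libraries.

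The genes that act around these factors in the LGE were read from a list of 35, of which 34 were tested. In the double KO against WT 16 rose and 0 fell, with a median log2 fold change of 0.70, where 2.42% of all genes were called as higher. Among those with the lowest adjusted p were Dlx2 (log2 1.61 ± 0.18), Dlx1 (1.67 ± 0.24), Dlx5 (1.83 ± 0.28), Sp9 (1.68 ± 0.26), Gsx2 (1.4 ± 0.22), Gad1 (1.64 ± 0.26) and Gad2 (1.61 ± 0.28). Gsx2 acts in LGE progenitors, Dlx genes and Sp9 in their GABAergic descendants, and Gad1 and Gad2 encode the enzymes that make GABA. In Dmrt5 KO against WT 4 of the 34 rose, among them Dlx2, Dlx1 and Dlx5, and 0 fell (median 0.34). There 0.339% of all genes were called as higher. In Dmrt3 KO against WT 0 rose and 0 fell by edgeR (median 0.08), with 2 at an unadjusted p under 0.05 and 0 called by DESeq2. Without double KO replicates 4 and 5, and so with a different estimate of the spread, 12 of the 34 rose in Dmrt5 KO, and DESeq2 called 11 as higher there. For the double KO against WT, 15 rose and 1 fell without these replicates, and DESeq2 called 16 as higher and 0 as lower. Over all genes in either direction, the fit without these replicates called 363 in Dmrt5 KO and DESeq2 438, against 167 in the main fit. In the double KO they called 2135 and 1441 of all genes, against 1012 in the main fit. Genes linked to differentiating striatal neurons on the list, singled out after their values were seen, differed in their calls. Rxrg, a retinoid receptor, rose by a log2 value of 1.71 ± 0.38 (adjusted p = 0.0107, edgeR) from a low level, with 4.57 ± 2.59 CPM in the double KO and 1.38 ± 0.46 in WT. Tac1, which encodes the precursor of substance P, rose by 1.39 ± 0.37 (adjusted p = 0.0307) and Foxp2 by 0.70 ± 0.20 (adjusted p = 0.0497). Foxp1 had a log2 value of -0.13 ± 0.18, Bcl11b (Ctip2) 0.22 ± 0.32, Rarb -0.14 ± 0.40, Ppp1r1b (DARPP-32) -0.04 ± 0.38, Penk -0.56 ± 0.76, Drd1 0.44 ± 0.57 and Drd2 0.70 ± 0.33, none called.

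None of the tested paralogs and partners of the 7 rose in the double KO against WT by edgeR, while against Dmrt3 KO 1 rose and 2 fell. In that comparison with Dmrt3 KO, 1.74% of all genes were called as higher and 1.96% as lower. Of 22 such genes 21 were tested, and in the double KO against WT 0 rose and 1 fell, with a median log2 fold change of 0.05, where 2.42% of all genes were called as higher and 3.81% as lower. At the adjusted threshold these shares are near the background. Of the 21, 9 had an unadjusted p under 0.05 by edgeR, a larger share than the 2869 of all 16236 genes tested. DESeq2 called 2 of the 21 as higher and 1 as lower. Without double KO replicates 4 and 5, 1 rose and 4 fell, where 2135 of all genes were called in either direction, against 1012 with all libraries. The 1 that fell was Ebf2, a relative of Ebf1 known from Cajal-Retzius and other early cortical neurons, which averaged 5.4 ± 2.83 CPM in the double KO, 11.3 ± 0.767 in Dmrt5 KO, 16.1 ± 2.23 in Dmrt3 KO and 23.7 ± 7.86 in WT (log2 -2.13 ± 0.29, adjusted p = 0.000221, edgeR). Meis3 averaged 152 ± 35.0 CPM in the double KO and 101 ± 22.6 in WT (log2 0.59 ± 0.18, adjusted p = 0.0639). Tle1, which encodes a Groucho-type corepressor, had a log2 value of 0.41 ± 0.13 (adjusted p = 0.0853), Six4 -0.92 ± 0.37 (0.182), Ebf3 -0.57 ± 0.24 (0.204) and Zfp703, the paralog of Zfp503, -0.25 ± 0.10 (0.184).

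Marker lists of neighbouring tissues moved as well. Of 9 tested markers of the medial ganglionic eminence (MGE), the more ventral subpallial swelling, 6 rose and 0 fell in the double KO (median log2 1.65). There 2.42% of all genes were called as higher. The MGE markers that rose were led by Gbx1 (1.65 ± 0.30), Zic1 (0.75 ± 0.15), Lhx8 (2.07 ± 0.42) and Lhx6 (1.84 ± 0.40). The 10 MGE markers summed to between 872 and 1234 CPM in the double KO, 760 and 923 in Dmrt5 KO, 384 and 702 in Dmrt3 KO and 451 and 537 in WT. Zic1 was the largest part of these sums, at 451 ± 43.5 CPM in the double KO and 268 ± 42.3 in WT. Nkx2-1 averaged 234 ± 82.6 CPM in the double KO and 58.4 ± 17.2 in WT. Restriction of the listed genes to the MGE was not tested, so the sum is not a measure of MGE content. Chat, a cholinergic marker on this list, was at 0 in at least 1 library of each genotype and was not tested. Of 14 pallial markers 13 fell and 0 rose in the double KO (median log2 -2.12), where 3.81% of all genes were called as lower, led by Nhlh1 (-2.45 ± 0.15), Emx1 (-4.17 ± 0.27), Fezf2 (-2.01 ± 0.13) and Slc17a7 (-3.45 ± 0.24). Their sum was 381 to 525 CPM in the double KO, 1012 to 1263 in Dmrt5 KO, 1423 to 1850 in Dmrt3 KO and 1270 to 1923 in WT. The part of these marker changes in the members' result was not tested.

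**Figure D3:**
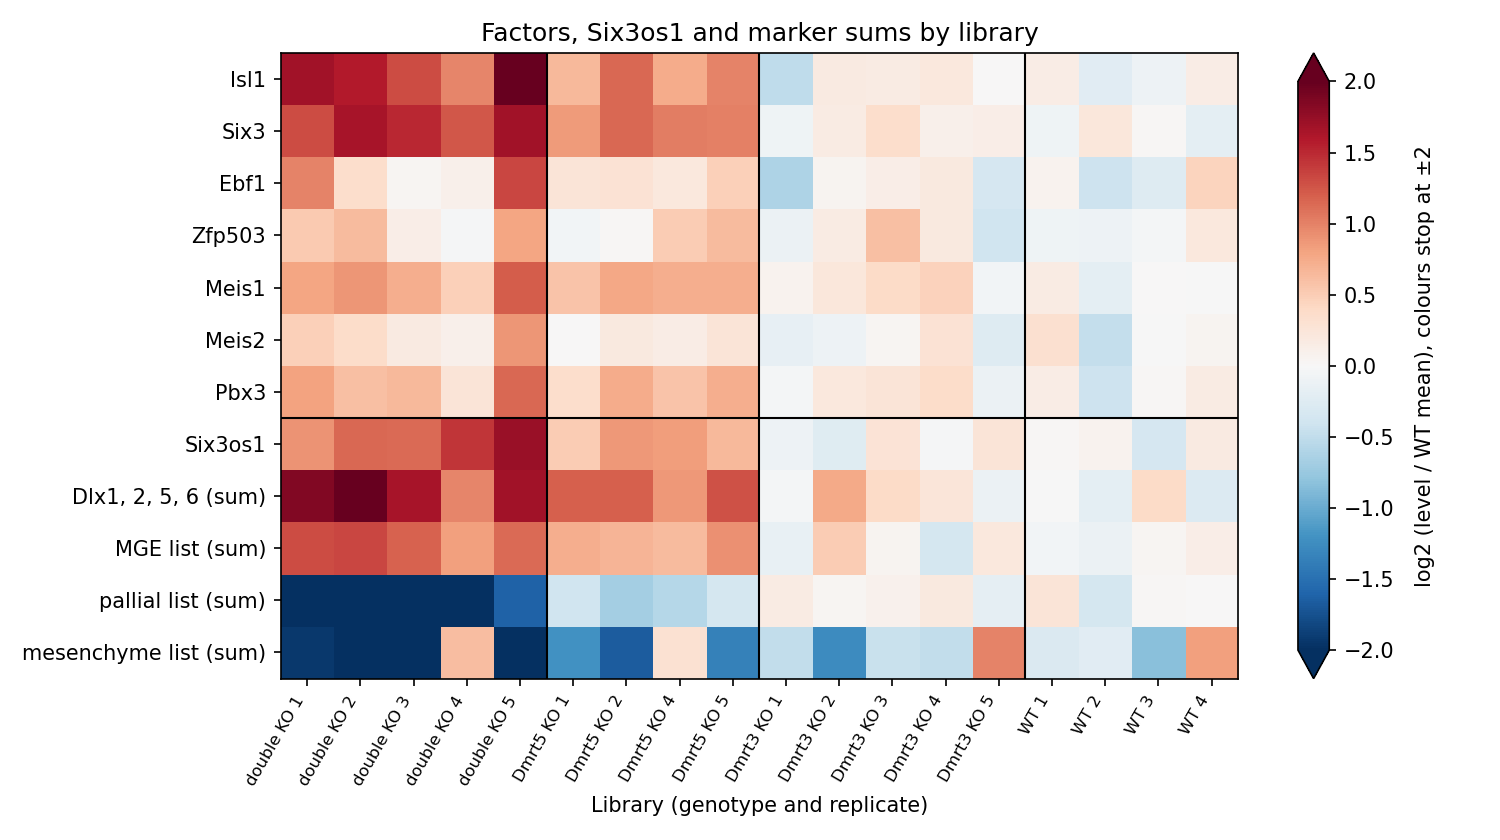
Log2 ratio to the WT mean (colour, stopping at ±2) of each factor, of Six3os1 and of summed marker lists in every library, with genotypes from double KO on the left to WT on the right. In the double KO columns Isl1, Six3, Dlx and MGE rows are red and the pallial row blue, and the mesenchyme row runs from its lowest sum in replicate 5 (67.9 CPM) to 2171 CPM in replicate 4.

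Markers of tissues outside the telencephalon were read in the same way. The 10 mesenchyme markers had a median log2 fold change of -1.04 in the double KO against WT with 0 called by edgeR, 1 at an unadjusted p under 0.05 and 0 called by DESeq2. Without double KO replicates 4 and 5, 7 of the 10 fell. That fit called 2135 of all genes in either direction, against 1012 with all libraries. With all libraries, 2869 of the 16236 genes tested had an unadjusted p under 0.05 by edgeR. For 10 markers of endothelium and pericytes the median was -0.33, with 0 called by edgeR, 3 at an unadjusted p under 0.05 and 0 called by DESeq2, and 4 fell without double KO replicates 4 and 5. Across libraries, the deviation of each member from its genotype mean had a Pearson r between -0.73 (Meis1) and -0.42 (Zfp503) with the mesenchyme score (n = 18), and between -0.08 (Six3) and 0.74 (Meis2) with the length slope, the slope of a library's log2 deviations on log gene length. For Ebf1 (0.71), Meis2 and Pbx3 (0.67) the r with the length slope was larger in size than that with the mesenchyme score (-0.43, -0.55 and -0.65), and for Meis1 and Isl1 it was 0.58 and 0.53. Double KO replicate 5, the highest double KO library for all 7 members, had the highest slope of the 18 libraries (0.326) as well as the lowest mesenchyme score. The libraries with reads of both sexes lay at the low end: WT replicate 2 had the lowest slope of the 18 (-0.196). Dmrt5 KO replicate 1 had the lowest slope of its genotype (-0.0849). These r describe libraries that also share depth. With the mesenchyme score as a term of the fit, the log2 values in the double KO against WT were 1.22 (Isl1), 1.33 (Six3) and 0.57 (Meis1), all called, and 0.42 (Pbx3), not called. With the length slope as a term they were 1.51 (Isl1), 1.49 (Six3), 0.79 (Meis1) and 0.67 (Pbx3), all called. Without double KO replicates 4 and 5, the same 4 members were called against WT, with log2 values of 1.56 (Isl1), 1.52 (Six3), 0.83 (Meis1) and 0.71 (Pbx3). The 7 eye markers, relevant since Six3 acts in the eye field, summed to 2.05 to 3.37 CPM in the double KO, 2.23 to 3.55 in Dmrt5 KO, 3.24 to 5.56 in Dmrt3 KO and 3.6 to 4.28 in WT, with Tyrp1 and Crx at 0 counts in the double KO. The 7 markers of peripheral sensory neurons, another source of Isl1 transcripts, summed to 4.73 to 7.49 CPM in the double KO, 4.35 to 5.5 in Dmrt5 KO, 4.06 to 8.88 in Dmrt3 KO and 3.86 to 4.75 in WT. The 9 markers of diencephalon and hypothalamus summed to 89.2 to 142 CPM in the double KO, 107 to 132 in Dmrt5 KO, 93.3 to 159 in Dmrt3 KO and 87.3 to 148 in WT, with 0 called in the double KO by edgeR, 3 at an unadjusted p under 0.05 and 0 called by DESeq2. Without double KO replicates 4 and 5, 2 of the 9 fell. The 7 Cajal-Retzius markers summed to 167 to 306 CPM in the double KO, 227 to 270 in Dmrt5 KO, 183 to 268 in Dmrt3 KO and 187 to 270 in WT, and Lhx5 rose and Trp73 fell in the double KO.

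Set against the Dlx genes, which mark subpallial neurons and their progenitors, the 7 members differed. The summed CPM of Dlx1, Dlx2, Dlx5 and Dlx6 ran from 969 to 1977 in the double KO, 904 to 1194 in Dmrt5 KO, 453 to 832 in Dmrt3 KO and 407 to 645 in WT. Isl1 amounted to 7.16 ± 1.71% of this sum in the double KO (SD, n = 5), 6.41 ± 0.949% in Dmrt5 KO (n = 4), 6.56 ± 1.3% in Dmrt3 KO (n = 5) and 7.85 ± 1.98% in WT (n = 4). Six3 amounted to 10.5 ± 2.36% in the double KO, 10.6 ± 1.66% in Dmrt5 KO, 10.8 ± 2.18% in Dmrt3 KO and 11.8 ± 2.71% in WT. For Isl1 and Six3 the genotype means of this ratio thus differed by less than the sum of their SDs. Meis2 amounted to 33.1 ± 8.72% of the sum in the double KO, 38.6 ± 5.23% in Dmrt5 KO, 64.1 ± 14.0% in Dmrt3 KO and 77.7 ± 20.4% in WT. The ratio of Pbx3 was 12.0 ± 2.78% in the double KO and 23.2 ± 5.96% in WT, that of Meis1 5.22 ± 1.15% and 9.26 ± 1.71%, that of Zfp503 4.66 ± 0.886% and 11.1 ± 2.96%, and that of Ebf1 3.98 ± 1.54% and 8.27 ± 3.42%. For Meis2, Pbx3, Meis1 and Zfp503 every double KO library had a lower ratio than every WT library. For Ebf1 the ranges overlapped (2.5 to 6.24% in the double KO, 5.01 to 13.0% in WT), and its means in these genotypes differed by less than the sum of their SDs. The Dlx sum itself was higher in every double KO library than in every WT library. A gene that did not change, or rose less than this sum, therefore has a lower ratio by construction. The share of all genes with lower ratios was not computed. These ratios are descriptions and their differences were not tested.

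**Figure D4:**
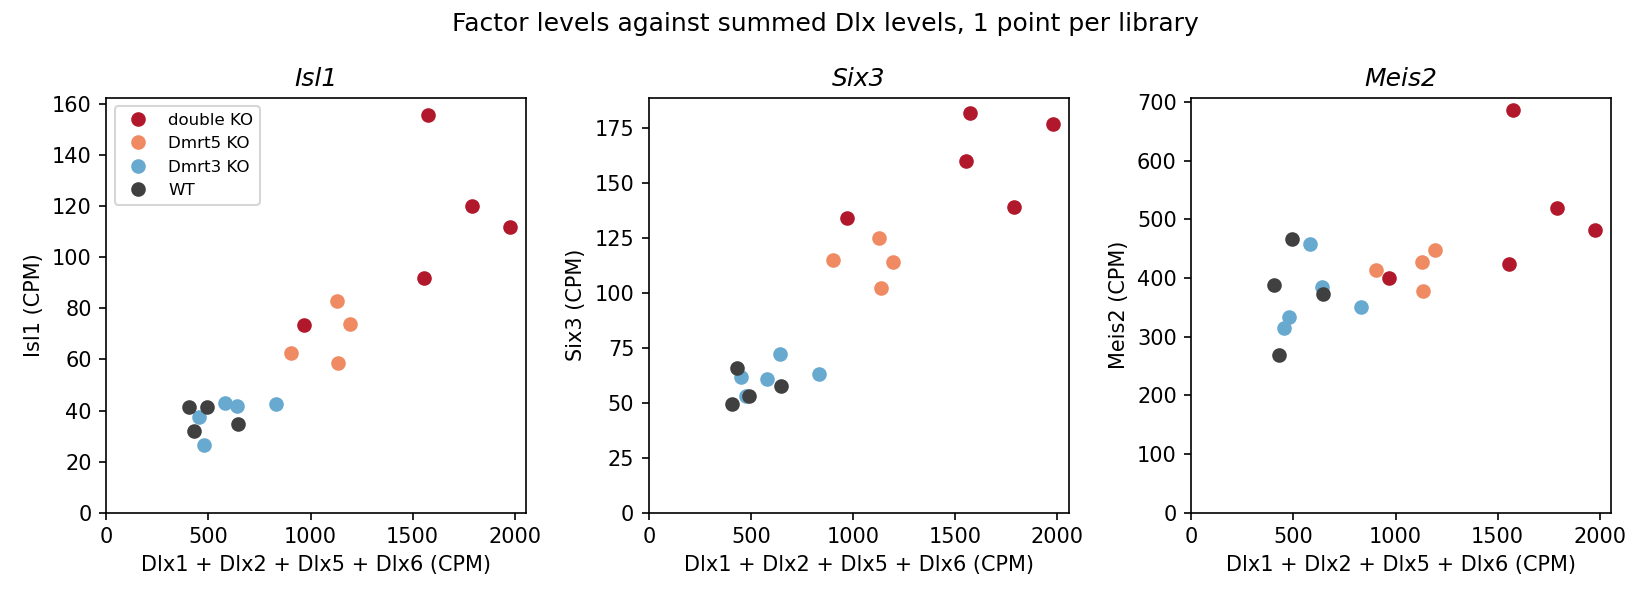
Level of Isl1, Six3 and Meis2 (y axes, CPM) against the summed level of Dlx1, Dlx2, Dlx5 and Dlx6 (x axis, CPM), with 1 point per library coloured by genotype. For Isl1 and Six3 the double KO libraries (969 to 1977 CPM of Dlx) lie at the upper right and the WT libraries (407 to 645 CPM of Dlx) at the lower left, while Meis2 in the double KO (400 to 686 CPM) overlaps its WT range (269 to 467 CPM).

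The members also varied together within genotypes. Over the 18 libraries, the Pearson r of the deviations from the genotype means had a median of 0.73 over the 21 pairs of members and was highest between Meis2 and Pbx3 (0.92), Meis1 and Pbx3 (0.91) and Meis1 and Meis2 (0.90). Six3 had the lowest values, 0.11 with Meis2, 0.13 with Ebf1 and 0.24 with Pbx3. The points share library depth and tissue composition, and these values are descriptions with no test.

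By the same measure on log2 CPM, including the differences between genotypes, the 3 other genes with the pattern most like each member were named. For Isl1 they were Abat, which encodes the GABA-degrading transaminase (r = 0.972), Rnd3 (0.969) and Cxxc4 (0.959), and for Six3 they were Ptprn2 (0.977), Smoc1 (0.967) and Dlx2 (0.962). For Ebf1 they were Runx1t1 (0.967), Jakmip2 (0.953) and Tsga10 (0.952), and for Zfp503 Pnma1 (0.833), Slain1 (0.831) and Bmper (0.813). For Meis1 they were Atp1b1 (0.952), Gjd2 (0.945) and Rab2b (0.942), for Meis2 Enox1 (0.959), Shtn1 (0.958) and Has3 (0.942), and for Pbx3 Nap1l2 (0.96), Atl1 (0.959) and Tmem169 (0.954). Zfp503 had the weakest best match. When deviations from the genotype means were used instead, 1 of the 3 remained for Isl1, Ebf1, Zfp503 and Meis1, 2 for Meis2 and Pbx3 and 0 for Six3.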

How the data were processed

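Per the labels' protocols, RNA of cortical tissue was extracted with an RNeasy kit, and libraries were prepared with TruSeq RNA Sample Prep v2, a kit that keeps no strand information. The authors deposited raw read counts per Ensembl gene with no normalisation, and the submitters' processing notes name featureCounts 1.4.6-p1, STAR 2.3.0e and DESeq2 1.8.2 among other tools, with build mm10, and give no order. Neither the strand setting and the treatment of multi-mapped reads nor the annotation release is named in the labels or file headers. Each file lists 38355 genes and 5 summary entries, which are 0. Symbols, coordinates and exon lengths came from GENCODE M21 by gene identifier (36602 matched; the unmatched held 0.397% of the counts).

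Genes were filtered with filterByExpr, which left 16236 with all 7 members among them, and edgeR 4.0.16 (R 4.3.3) fitted its quasi-likelihood model, with a mean for each genotype and trimmed-mean scaling, to the 18 libraries. CPM were derived from the deposited counts, log2 CPM with a prior count of 2. SEs were derived from the fold change and its F statistic. Tests are two-sided, p-values are Benjamini-Hochberg adjusted over all tested genes, and a gene is called, or said to rise or fall, at an adjusted p under 0.05. The mesenchyme score is the mean log2 CPM of 10 markers, and the length slope is the slope of a library's log2 deviations on log gene length. Alternatives were relative-log size factors, DESeq2 1.42.0, no filter, fits of the compared genotypes only, a replicate block, sex (inferred from Xist and Y-linked transcripts), the mesenchyme score or the length slope as a term, and each library left out; leaving out double KO replicates 4 and 5 together, or WT replicate 2 with Dmrt5 KO replicate 1, was added after seeing the data. Named genes are the members, the targeted genes, the overlapping genes, up to 8 genes of the striatal and paralog lists and up to 4 of the others with the lowest adjusted p in the double KO, and the 3 best correlates of each member. The members and lists were chosen with earlier results of these data known. Some genes that the rule names are not reported here.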

Additional observations from a re-analysis of the deposited data

How the results depend on the processing

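Six3 was called against WT in the double KO and in Dmrt5 KO under every alternative run, and Isl1 and Meis1 were called in the double KO under every one. Leaving out 1 library gave 1 to 3 called members in Dmrt5 KO against WT (3 with all libraries), 4 in the double KO against WT, 3 to 5 in the double KO against Dmrt3 KO and 1 to 2 in Dmrt5 KO against Dmrt3 KO (1 with all libraries; 2 without double KO replicate 4 or 5). Without WT replicate 2 and Dmrt5 KO replicate 1 together, 1 member was called in Dmrt5 KO against WT. DESeq2 called 1 in the double KO against Dmrt5 KO and 2 in Dmrt5 KO against Dmrt3 KO. Fits of the compared genotypes alone called 2 in the double KO against Dmrt3 KO and 2 in Dmrt5 KO against Dmrt3 KO, the mesenchyme score called 2 in the double KO against Dmrt3 KO, and the length slope, or leaving out double KO replicates 4 and 5, called 2 in Dmrt5 KO against Dmrt3 KO. With the length slope 6 were called in the double KO against WT, Ebf1 and Meis2 being added (adjusted p = 0.0416 and 0.0389, edgeR). That fit called 3170 of all genes in either direction, against 1012 in the main fit. Counts over all genes under most of the other settings are given below. The cause of these shifts was not tested.

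The replicate numbers were not taken to pair the libraries, since not every same-numbered pair deviated together: r ran from -0.36 to 0.70 (median 0.24) over same-numbered pairs and from -0.75 to 0.71 (median -0.14) over the others, and 4 of 18 libraries had their best correlate under their own number. The labels do not say what the numbers stand for. With the number as a replicate block, 2 members were called in Dmrt5 KO against WT (Isl1 was lost, adjusted p = 0.0692), 4 in the double KO against WT and 3 against Dmrt3 KO.

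Signs turned only where nothing was called. In Dmrt3 KO against WT, the log2 value of Isl1 was -0.03 with the block and -0.03 without WT replicate 2 and Dmrt5 KO replicate 1, and with the length slope that of Ebf1 was 0.11 and of Meis2 0.09. In the double KO against Dmrt5 KO, the mesenchyme score gave -0.04 for Zfp503, -0.05 for Meis1 and -0.09 for Pbx3, and the length slope -0.02 for Pbx3. For the interaction, Zfp503 was -0.13 with the mesenchyme score, -0.16 with the length slope and -0.07 without WT replicate 2 and Dmrt5 KO replicate 1, Ebf1 -0.01 with the length slope, and Pbx3 0.01 with no filter. With single libraries left out, the log2 values in Dmrt3 KO against WT ran from -0.03 to 0.14 for Isl1, -0.19 to 0.1 for Ebf1, -0.01 to 0.23 for Zfp503 and -0.15 to 0.1 for Meis2, those of Pbx3 in the double KO against Dmrt5 KO from -0.02 to 0.21, and the interactions from -0.09 to 0.14 for Zfp503 and from -0.16 to 0.08 for Pbx3.

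Counts over all genes moved more. In Dmrt3 KO against WT 2 genes were called, 54 by DESeq2, 89 with the length slope, 4 without WT replicate 2 and Dmrt5 KO replicate 1, and 2 to 6 with 1 library left out. In Dmrt5 KO against WT 167 were called, 438 by DESeq2, 89 with only these genotypes, 380 with the block, 255 with sex, 544 with the length slope, 363 without double KO replicates 4 and 5 and 54 to 244 with 1 library left out. In the double KO against WT 1012 were called, 368 with only these genotypes, 437 with the mesenchyme score, 3170 with the length slope, 2135 without double KO replicates 4 and 5 and 727 to 2006 with 1 library left out. Against Dmrt5 KO 54 were called, 112 by DESeq2, 21 with only these genotypes, 121 with the length slope and 34 to 79 with 1 library left out. Against Dmrt3 KO 600 were called, 976 by DESeq2, 358 with only these genotypes, 299 with the mesenchyme score and 396 to 1437 with 1 library left out. In Dmrt5 KO against Dmrt3 KO 37 were called, 144 by DESeq2, 105 with only these genotypes, 121 with the length slope, 69 without double KO replicates 4 and 5, 24 without WT replicate 2 and Dmrt5 KO replicate 1, and 12 to 59 with 1 library left out. For the interaction 23 were called, 127 by DESeq2 and 15 to 33 with 1 library left out.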
